A study of Mus musculus with 6 samples.

Results

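The plasminogen activation genes of PA6 cells, a stromal cell line of the mouse, were described after 3 h of exposure to a growth factor. The 7 genes were PLAU, PLAT, PLAUR, ANXA2, SERPINE2, SERPINB2 and SERPINF1, and their 11 probes were all those of the 45281 probes on the array that carried one of these symbols. Confluent PA6 monolayers were kept in serum-free medium without growth factors (-GFs, the control), with 20 ng/ml of recombinant FGF2 or with 10 ng/ml of recombinant BMP4, with 2 arrays per group and 6 arrays in all. Each biological replicate supplied a well for each of the 3 conditions, so arrays with the same replicate number form a set. PA6 is a single cell line grown alone here, without the embryonic stem cells that it supports in the co-cultures of the study.

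Plasminogen activation is a proteolytic cascade at the cell surface. The urokinase-type activator (uPA, product of PLAU) and the tissue-type activator (tPA, product of PLAT) cleave plasminogen to plasmin, a protease that degrades fibrin and matrix proteins and releases growth factors from the matrix. The urokinase receptor (uPAR, product of PLAUR) is a lipid-anchored protein that holds uPA at the cell surface, and annexin A2 (ANXA2) forms with S100A10 a surface complex that binds plasminogen and tPA. The serpins SERPINE2 (protease nexin-1) and SERPINB2 (plasminogen activator inhibitor type 2) inhibit the activators, whereas SERPINF1 (pigment epithelium-derived factor, PEDF) is a secreted antiangiogenic serpin that inhibits no protease. Pericellular plasmin generation is known for its part in cell migration and in the invasion of the matrix by endothelial cells.

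Exposure to FGF2 gave higher signal for the receptor and for both activators, and the receptor showed the largest difference. The PLAUR signal was 3.15-fold higher with FGF2 than in -GFs, that of PLAU was 1.64-fold higher and that of PLAT was 1.5-fold higher. Only PLAUR was also large enough in fold to be called, whereas PLAU and PLAT passed on the adjusted p alone. PLAU stayed under that limit in 15 of 19 alternative limma settings and PLAT in 9 of 19. PLAT missed it, for example, with median scaling (adjusted p = 0.102) and with the 2 groups fitted alone (0.116). ANXA2, SERPINE2 and SERPINF1 did not pass the adjusted p. With BMP4, none of the 6 genes that could be tested passed. SERPINB2 was not detected on any array. In RNA of whole cultures, more transcript per cell and more expressing cells cannot be told apart.

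The promoter of Plaur is shown because it belongs to the member with the largest difference, and those of Anxa2 and Serpine2 because each is a detected gene that holds a motif also present in it. The sequences were taken from RefSeq (GRCm38.p6) as the 250 bases before the start of an annotated transcript and are written 5′ to 3′ on the strand of the gene. Plaur lies at chr7:24462233-24462482 on the plus strand, Anxa2 at chr9:69453433-69453682 on the plus strand and Serpine2 at chr1:79858666-79858915 on the minus strand. The Plaur sequence precedes a transcript start that lies inside the annotated span of the gene. Capitals mark exact matches to the motifs named after the sequences.
Plaur: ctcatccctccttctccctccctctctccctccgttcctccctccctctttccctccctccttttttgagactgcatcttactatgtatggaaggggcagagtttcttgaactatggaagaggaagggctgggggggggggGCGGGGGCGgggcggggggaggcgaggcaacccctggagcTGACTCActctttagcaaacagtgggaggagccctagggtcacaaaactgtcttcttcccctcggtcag
Anxa2: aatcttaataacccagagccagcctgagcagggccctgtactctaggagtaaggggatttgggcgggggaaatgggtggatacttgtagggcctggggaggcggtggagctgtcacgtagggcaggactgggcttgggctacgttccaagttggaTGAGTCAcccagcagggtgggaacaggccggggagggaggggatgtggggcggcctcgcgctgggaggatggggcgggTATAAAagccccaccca
Serpine2: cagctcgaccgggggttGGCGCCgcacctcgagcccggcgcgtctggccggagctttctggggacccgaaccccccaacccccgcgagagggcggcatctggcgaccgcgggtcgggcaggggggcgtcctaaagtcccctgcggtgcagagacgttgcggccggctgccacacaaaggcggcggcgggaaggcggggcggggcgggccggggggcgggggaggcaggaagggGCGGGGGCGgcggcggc

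Matches were searched on both strands by letters alone. The AP-1 motif, TGANTCA, was present as TGACTCA in the Plaur promoter, 69 bases before the start, and as TGAGTCA in the Anxa2 promoter, 95 bases before the start. It was held by 6.75% of the 32851 promoters of the same length. The EGR motif, GCGNGGGCG, was present in the promoters of Plaur and Serpine2 and in 4.7% of all promoters. Anxa2 also held the TATA box letters TATAAA (12.4% of all promoters), and Serpine2 the BMP-SMAD letters GGCGCC (9.59%). Neither the ETS letters CCGGAA (12% of all promoters) nor the SMAD letters GTCTAGAC (0.167%) were found in the promoters of the members. The table held 6 promoters for 5 of the 7 genes, with Plau and Plat unmatched. Serpinb2 (both of its overlapping promoters, which share the same match) held the AP-1 and TATA box letters, and Serpinf1 held none of the motifs. A match is a description of the letters and not a measured binding site.

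Genes known to respond to each factor differed between the conditions: EGR1 differed by 4.19 and DUSP6 by 3.55 on the log2 scale between FGF2 and -GFs, and ID1 by 2.77 between BMP4 and -GFs (0.37 between FGF2 and -GFs). Between 15509 and 16459 probes were detected per array (detection p under 0.05). All 7 stromal markers were detected on all 6 arrays. Undetected were PECAM1 and CDH5 (endothelial), PTPRC, CD68 and EMR1 (haematopoietic), EPCAM, KRT8 and KRT18 (epithelial) and NANOG and SOX2 (pluripotent), whereas TEK, CDH1 and POU5F1 of these lists were detected on all 6 arrays, CSF1R on 5 and KDR on 4, all at intensities of at most 353.6. The adipocyte markers differed mainly with the replicate number: the summed intensity of ADIPOQ, CFD, FABP4 and PLIN1 was 551.7 to 624.2 on the replicate 1 arrays and 2412.8 to 3421.5 on the replicate 2 arrays, with FABP4 undetected throughout. Within replicate 2 the sum, most of it ADIPOQ (1658.1 to 2453.5), was lower with FGF2 (2412.8) than in -GFs (3421.5) or with BMP4 (3346.3). ADIPOQ and CFD were lower there with FGF2 than in -GFs, whereas PLIN1 was not (203.2 against 182.8). Values within each replicate are therefore given for the genes that passed.

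The receptor was examined first. PLAUR (chr7:24460937-24475970 in GRCm38.p6) is represented by 1 probe, ILMN_2590884. Its deposited bead intensity was 251.2 and 226.9 in -GFs, 571 and 911.8 with FGF2, and 205.3 and 237.8 with BMP4 (replicates 1 and 2). Both FGF2 arrays lay above all other arrays, and the -GFs and BMP4 arrays overlapped. After normalisation, 24.6% of all genes had both FGF2 arrays above both -GFs arrays. So did 4 of the 6 members tested, namely PLAUR, PLAU, PLAT and ANXA2. The probe was detected on all 6 arrays, although the -GFs and BMP4 values lay close to the array medians of 153.4 to 168.1. On the normalised log2 scale the level was 7.87 ± 0.04 in -GFs, 9.52 ± 0.52 with FGF2 and 7.81 ± 0.08 with BMP4 (SD, n = 2).

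A gene was called when its log2 fold change exceeded 1 in size and its Benjamini-Hochberg adjusted p, from limma over all 11872 genes tested, was under 0.1. PLAUR was the member called in FGF2 against -GFs, with a log2 fold change of 1.65 (SE 0.24, 95% interval 1.07 to 2.23, adjusted p = 0.017). This is 1 of the 6 members tested, beside 3.53% of all genes. PLAUR ranked 55 by its log2 fold change among the genes tested. The difference was 1.31 within replicate 1 and 2.0 within replicate 2, larger in both than the spread within any group. The 2 FGF2 arrays were themselves 0.74 apart, against 0.05 for the -GFs arrays and 0.11 for the BMP4 arrays. Leaving out FGF2 replicate 2 gave 1.28 (adjusted p = 0.0955), and leaving out FGF2 replicate 1 gave 2.02 (adjusted p = 0.0418). The summed adipocyte marker intensity, mostly that of ADIPOQ, was also higher on the replicate 2 arrays, although lower there with FGF2 than in -GFs. Its part in the larger PLAUR difference within replicate 2 was not tested.

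The size of the PLAUR difference depended on the treatment of background. With the alternative neqc normalisation, which subtracts background estimated from the detection p, the log2 fold change was 2.54, or 5.83-fold.

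**Figure D1:**
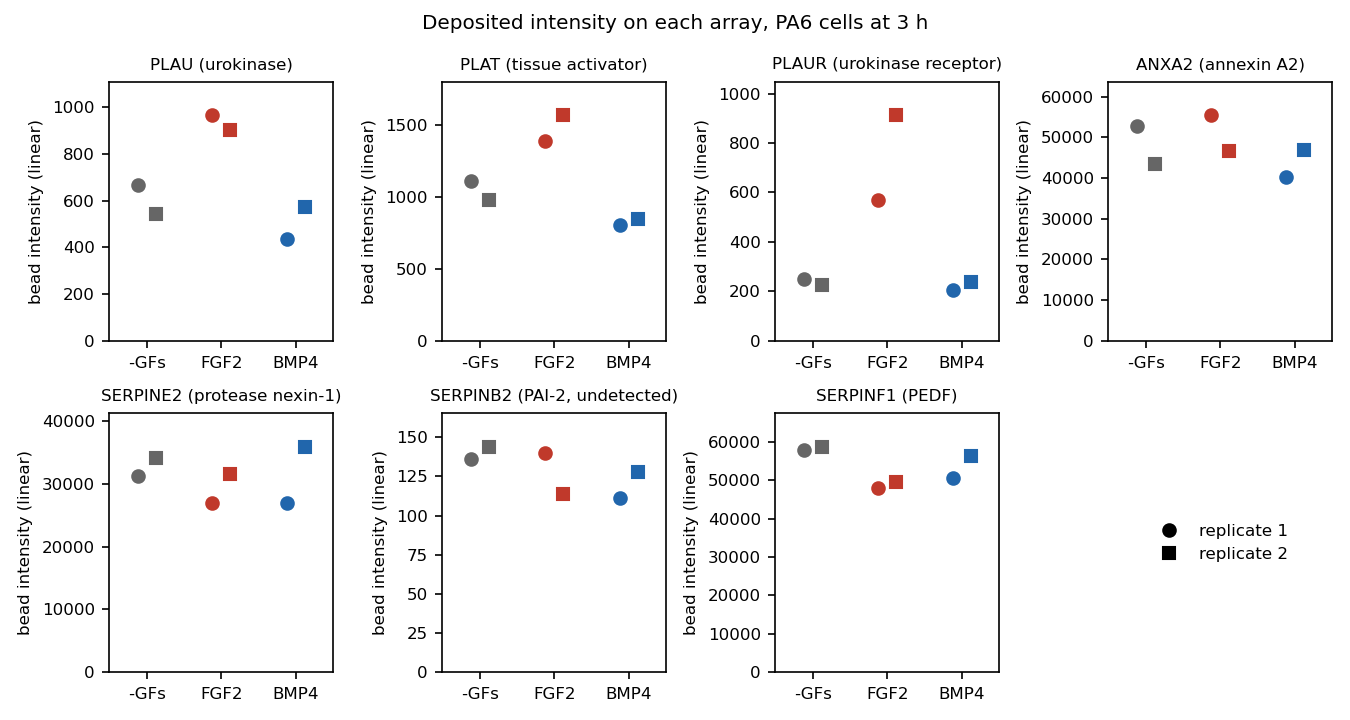
Deposited bead intensity (linear axis from 0, arbitrary units, a scale of its own in each panel) of the probe used for each gene on the 6 arrays, by stimulus. Circles are replicate 1 and squares replicate 2. For PLAU, PLAT and PLAUR both FGF2 arrays lie above the other 4, as in PLAUR with 571 and 911.8 against 205.3 to 251.2. After normalisation both FGF2 arrays lay above both -GFs arrays in 24.6% of all genes, ANXA2 among them.

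Urokinase was higher with FGF2 by less than the threshold on the fold. PLAU (chr14:20836662-20843388) had intensities of 666.7 and 544.3 in -GFs, 964 and 900.9 with FGF2, and 437.3 and 573.7 with BMP4 on probe ILMN_2629582. The FGF2 arrays lay above all others, and a BMP4 array fell below both -GFs arrays. The normalised level was 9.17 ± 0.01 in -GFs, 9.89 ± 0.02 with FGF2 and 9.0 ± 0.22 with BMP4 (log2, SD, n = 2). The log2 fold change for FGF2 against -GFs was 0.72 (SE 0.16, 95% interval 0.33 to 1.10, adjusted p = 0.0509), with 0.74 within replicate 1 and 0.70 within replicate 2. The replicates of -GFs and of FGF2 thus differed by far less than these groups, whereas the BMP4 replicates were 0.31 apart. The adjusted p nevertheless did not stay under 0.1 when either FGF2 array or either -GFs array was left out. The log2 fold changes were then between 0.70 and 0.73.

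The tissue-type activator had a smaller difference of the same direction. PLAT (chr8:22757722-22782848) had intensities of 1110.9 and 979.4 in -GFs, 1391.4 and 1566.1 with FGF2, and 802.5 and 843.1 with BMP4 on probe ILMN_2775937. The 3 groups did not overlap, with FGF2 highest and BMP4 lowest. The normalised level was 9.97 ± 0.07 in -GFs, 10.56 ± 0.18 with FGF2 and 9.72 ± 0.03 with BMP4 (log2, SD, n = 2). The log2 fold change for FGF2 against -GFs was 0.58 (SE 0.16, 95% interval 0.22 to 0.95, adjusted p = 0.0788), with 0.51 and 0.66 within replicates 1 and 2. The adjusted p no longer passed when any single array was left out, being then 0.118 to 0.375 with log2 fold changes of 0.46 to 0.71. The other 2 PLAT probes were not detected on any array (detection p 0.083 to 0.858), so that the tPA result rests on a single probe.

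Both activators and the receptor therefore passed the adjusted p whatever the fold, 3 of the 6 members tested, all higher with FGF2, beside 6.03% of all genes. With the replicate number as a block, the same 3 genes passed, with adjusted p of 7.48e-07 for PLAUR, 0.00105 for PLAU and 0.00427 for PLAT, beside 18.1% of all genes in that direction. The median log2 fold change of the 6 members was 0.39, against -0.02 over all genes. The members and lists were chosen with earlier results of these data known. Such shares and medians, here and below, are therefore a description and not a test. Over the 6 arrays, which share the 3 conditions, the log2 levels of PLAT and PLAUR had a Pearson r of 0.961, those of PLAU and PLAT 0.934 and those of PLAU and PLAUR 0.931.

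**Figure D2:**
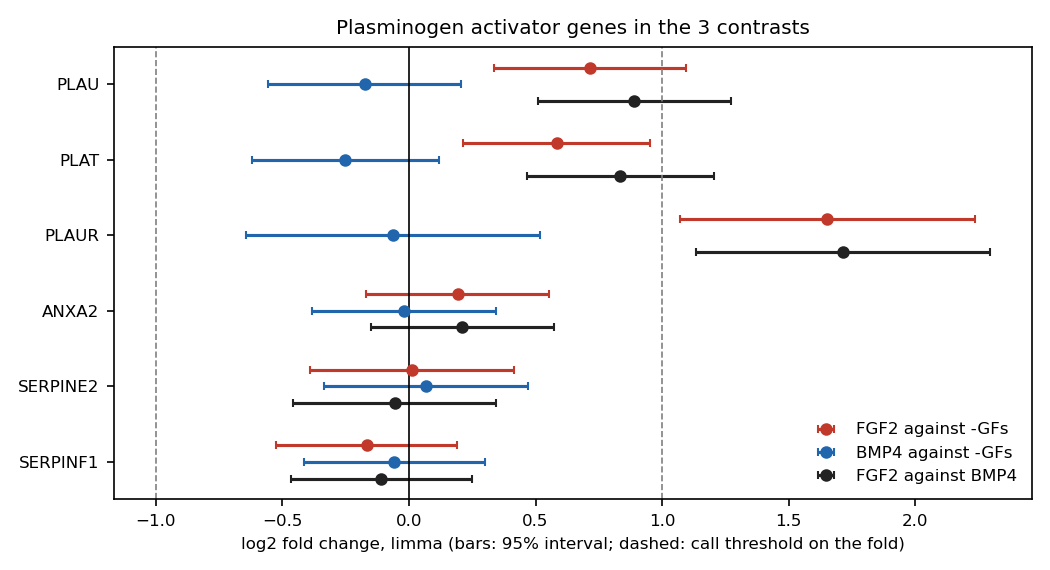
Log2 fold change of the 6 genes tested in the 3 contrasts, with the 95% interval from limma; dashed lines stand at the call threshold on the fold. PLAUR lies beyond 1 in both contrasts of FGF2 (1.65 and 1.72), PLAU and PLAT lie between 0 and 1, and all 6 intervals of BMP4 against -GFs include 0.

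Annexin A2 was among the brightest of the members' probes. ANXA2 (chr9:69453683-69491792) had intensities of 52729 and 43371 in -GFs, 55382 and 46725 with FGF2, and 40305 and 46929 with BMP4, on arrays whose highest values were 65459 to 72645. The groups overlapped in raw intensity, and after normalisation both FGF2 arrays lay above both -GFs arrays, a pattern shown by 24.6% of all genes. The log2 fold change for FGF2 against -GFs was 0.19 (SE 0.15, 95% interval -0.17 to 0.55, adjusted p = 0.505).

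Of the activator inhibitors, SERPINE2 did not pass the test and SERPINB2 could not be tested. SERPINE2 (chr1:79794317-79858665) had intensities of 31206 and 34114 in -GFs, 26976 and 31486 with FGF2, and 26938 and 35838 with BMP4 on its brighter probe. All groups overlapped, and the log2 fold change for FGF2 against -GFs was 0.01 (SE 0.17, 95% interval -0.39 to 0.41, adjusted p = 0.979). The interval excludes a change as large as the call threshold in either direction. The second probe, ILMN_2883164, gave 0.26 (SE 0.24, adjusted p = 0.571), from intensities of 2029.5 and 1970.2 in -GFs and 2353.5 and 2168.1 with FGF2. SERPINB2 (chr1:107500892-107525600) gave 136 and 143.8 in -GFs, 140 and 113.5 with FGF2, and 111.3 and 127.6 with BMP4, with detection p of 0.385 to 0.974. These values were not distinguished from those of the negative control beads, and no fold change was computed.

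SERPINF1 (chr11:75410029-75422623), which encodes PEDF, had 57869 and 58626 in -GFs, 47840 and 49588 with FGF2, and 50422 and 56201 with BMP4. The FGF2 arrays lay below the -GFs arrays in intensity and after normalisation, as did 29.1% of all genes after normalisation. The log2 fold change was -0.17 (SE 0.15, 95% interval -0.53 to 0.19, adjusted p = 0.560). Its dimmer probe, ILMN_1257789, was opposite in sign, with 0.20 (adjusted p = 0.506). Like ANXA2, the brighter probe was near the top of the range.

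BMP4 against -GFs gave no call among the members. The log2 fold change was -0.25 for PLAT (95% interval -0.62 to 0.12), -0.18 for PLAU (-0.56 to 0.21), -0.06 for PLAUR (-0.64 to 0.52), -0.06 for SERPINF1 (-0.42 to 0.30), -0.02 for ANXA2 (-0.38 to 0.34) and 0.07 for SERPINE2 (-0.33 to 0.47). None of the 6 passed an adjusted p of 0.1 in limma, beside 0.00842% of all genes, and the count was also 0 with the replicate block (0.219% of all genes) and with the adjusted p of the methods' unmoderated test, which without adjustment gave p = 0.0441 for PLAT, a test that is not exact at this number of arrays. None of the 6 had an unadjusted p under 0.05 in limma, which 1.81% of all genes had. The BMP4 arrays lay below both -GFs arrays for PLAT and PLAU after normalisation, a pattern of 12.8% of all genes. The intervals leave room for differences below the call threshold in every member.

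The factors were then compared directly, since both contrasts above share the -GFs arrays. PLAUR was 1.72 higher on the log2 scale with FGF2 than with BMP4 (SE 0.24, 3.28-fold, adjusted p = 0.0174), with 1.40 and 2.03 within replicates 1 and 2. It was 1 of 6 members called, beside 3.07% of all genes. PLAU was 0.89 higher (SE 0.16, adjusted p = 0.0319), with 1.06 and 0.72 within the replicates, and PLAT 0.84 higher (SE 0.16, adjusted p = 0.0348), with 0.69 and 0.98. Whatever the fold, 3 of 6 members passed, all higher with FGF2, beside 4.84% of all genes. The adjusted p of PLAU exceeded 0.1 without FGF2 replicate 1 (0.189), FGF2 replicate 2 (0.220) or BMP4 replicate 1 (0.144), and PLAT exceeded it without any 1 of the 4 arrays compared (0.141 to 0.259). Conversely, without BMP4 replicate 2 PLAU crossed the fold threshold (1.04, adjusted p = 0.0800). ANXA2 differed by 0.21 (adjusted p = 0.490), SERPINE2 by -0.06 (0.889) and SERPINF1 by -0.11 (0.739).

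**Figure D3:**
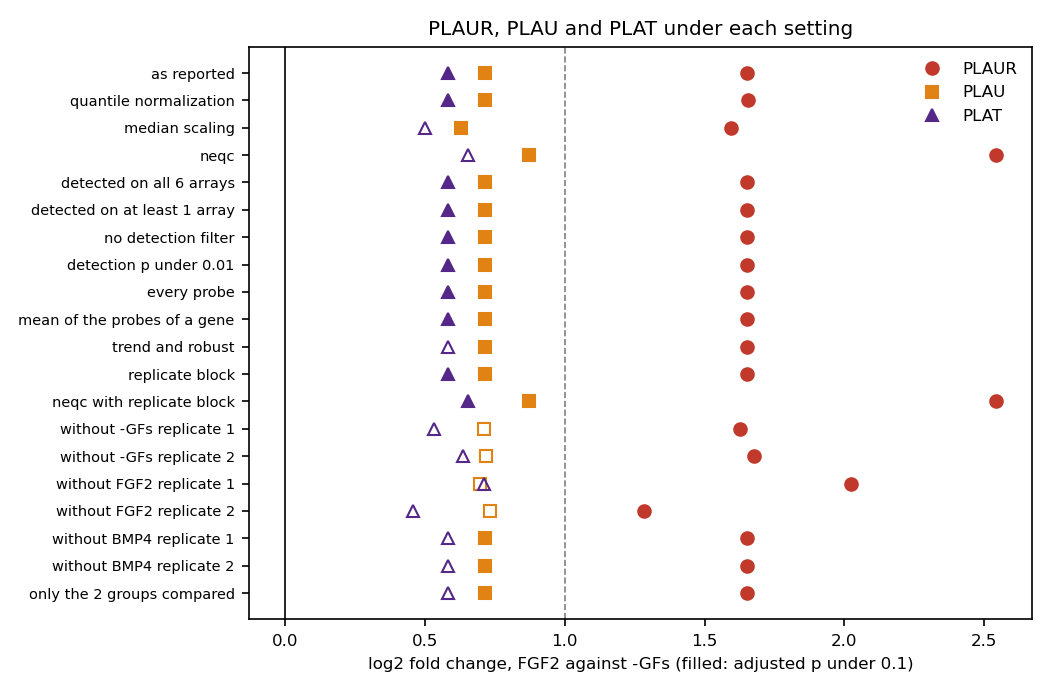
Log2 fold change of PLAUR, PLAU and PLAT for FGF2 against -GFs as reported and under each alternative limma setting (rows); filled symbols have an adjusted p under 0.1. PLAUR is filled in all 19 alternatives, PLAU in 15 and PLAT in 9, and the lowest PLAUR value, 1.28, is without FGF2 replicate 2.

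The rest of the pathway was taken from 5 lists of 36 genes in all, of which 35 were on the array and 21 could be tested. With FGF2 against -GFs, 2 of the 21 were called, both higher, beside 3.53% of all genes in either direction. Whatever the fold, 3 passed the adjusted p higher and none lower (1 was lower at an unadjusted p under 0.05), beside 6.03% and 5.78% of all genes. The third of these was MMP3, which entered the test only through its detection on the FGF2 arrays. The median log2 fold change was -0.03, against -0.02 over all genes. With the replicate block, 7 passed higher, MMP3 among them, and 2 lower, beside 18.1% and 19.6% of all genes. With BMP4 none of the 21 passed in limma, with or without the block, and 1 was lower at an unadjusted p under 0.05.

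The zymogen itself was not measurable, since the 4 probes of PLG were undetected on every array, and the 3 probes of the plasmin inhibitor gene SERPINF2 gave 119.8 to 195.1, with detection p of 0.0417 to 0.910 and too few detected arrays to be tested. An undetected probe does not show absence of the transcript: the single probe of HMGB1, a gene used by most cells, was also undetected (148 to 186.2). None of the genes in the list of zymogen and plasmin inhibitors could be tested. PLG, SERPINF2 and HMGB1 were named after their values were seen.

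Among the 9 receptor partners and clearance genes tested, ITGA5 was called. It encodes the integrin alpha 5 subunit of the fibronectin receptor. Its intensities were 1196.6 and 1457 in -GFs, 6197.1 and 8173.1 with FGF2, and 932 and 1131.1 with BMP4. The FGF2 arrays stood apart from the other 4, with a log2 fold change of 2.54 against -GFs (SE 0.23, adjusted p = 0.00544) and of 2.80 against BMP4 (adjusted p = 0.00401). The lowest value of the list was that of LRPAP1, a chaperone of the clearance receptor LRP1, at -0.21, and LRP1 itself gave -0.13.

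Among the 8 proteases and growth factors acted on by plasmin or its activators, TGFB1 was called. It encodes a latent growth factor that plasmin can release. Its intensities were 935.2 and 890.1 in -GFs, 1659.4 and 2160.7 with FGF2, and 635.6 and 782.3 with BMP4. FGF2 was highest and BMP4 lowest, without overlap, and the log2 fold change was 1.14 against -GFs (SE 0.20, adjusted p = 0.0258) and 1.42 against BMP4 (adjusted p = 0.0158). MMP3, a matrix metalloprotease named after its values were seen, passed the adjusted p (0.0509) but was detected on the FGF2 arrays alone, at 203.8 and 221.4, which gives at least 1.12-fold higher than -GFs when the lowest detected signal of each -GFs array is taken as the limit. The lowest value of the 5 lists was that of MMP2, a gelatinase, at -0.42 (adjusted p = 0.190, and 0.0387 with the replicate block).

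Of the 4 genes for plasminogen binding at the cell surface that were tested, none passed with FGF2, and 0 had an unadjusted p under 0.05 in limma, whereas 1 passed lower with the replicate block. S100A10, the partner of annexin A2, had a log2 fold change of -0.06 with FGF2 and of -0.38 with BMP4 (SE 0.14, adjusted p = 0.9995). With BMP4, S100A10 was the 1 gene of these 4 that was lower at an unadjusted p under 0.05 in limma. The plasminogen receptor gene Plgrkt, listed on the array as 5033414D02RIK, gave -0.34 with FGF2 (adjusted p = 0.285).

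**Figure D4:**
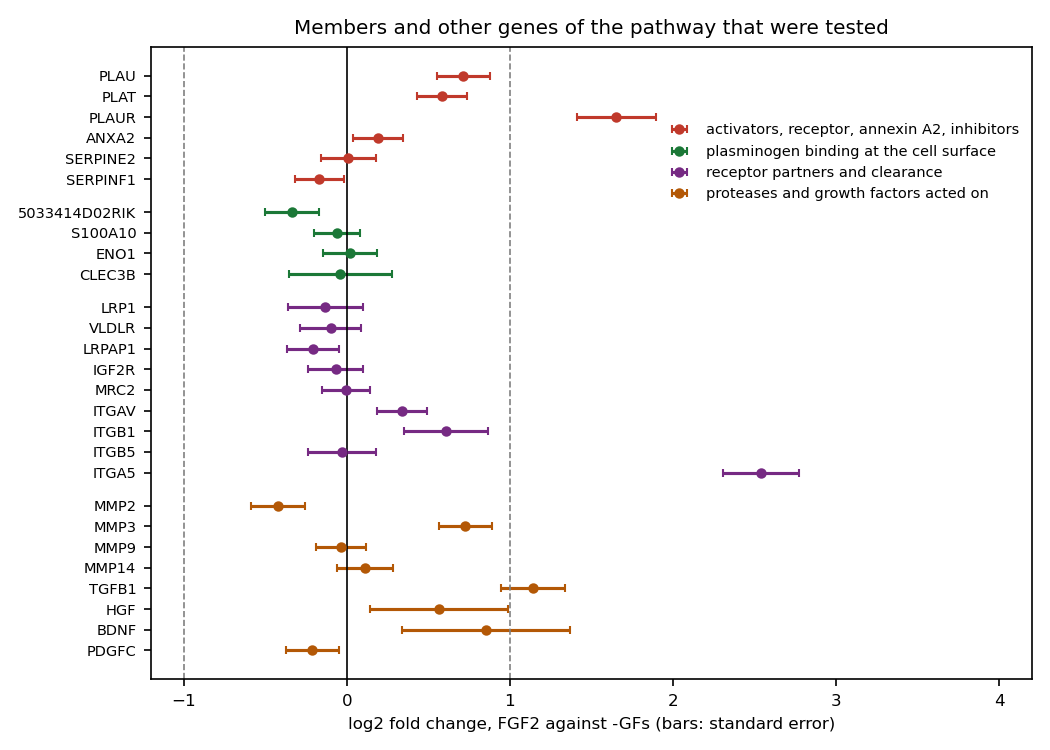
Log2 fold change for FGF2 against -GFs of the 6 members and of the 21 other pathway genes tested, coloured by list, with the standard error from limma; dashed lines stand at the call threshold on the fold. ITGA5 (2.54), PLAUR (1.65) and TGFB1 (1.14) lie beyond the threshold, and the lowest value is that of MMP2 (-0.42).

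The genes whose levels over the 6 arrays were most like those of PLAUR were STEAP1 (Pearson r 0.999), CXCL14 (0.998) and IL1RL1 (0.998), as a description over arrays that share the 3 conditions; 288 genes had an r above 0.95. STEAP1 had intensities of 321.4 and 275.6 in -GFs, 606.5 and 926.5 with FGF2, and 244.5 and 269.2 with BMP4. CXCL14, a chemokine, had 196.1 and 196.6 in -GFs, 649.8 and 1076.4 with FGF2, and 161.4 and 182.6 with BMP4, and was detected on 1 of the 2 -GFs arrays and on neither BMP4 array. As with PLAUR, FGF2 replicate 2 was the highest array in both. IL1RL1, the interleukin 33 receptor, gave 177.9 and 188.3 in -GFs, where it was undetected, and 1504 and 3485.1 with FGF2. This is at least 12-fold higher with the limit used for MMP3. With BMP4 it gave 160.8 and 213.4 and was detected on 1 array. CXCL14 and IL1RL1 entered the test only through their detection on the FGF2 arrays.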

How the data were processed

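Total RNA of 6 PA6 cultures was hybridised to Illumina mouse bead arrays. The authors deposited the bead intensity of each probe, not normalised, with a detection p-value; the submitters' processing notes name GenomeStudio 2011.01. Values in 9 columns without a heading and 6 stray lines were not used. Following the methods, intensities were normalised with a re-implemented cubic spline (452 quantiles) and set to log2. A probe was kept where a group had a detection p under 0.05 on each of its 2 arrays (16111 of 45281, 8 of the 11 probes of the members), and a gene was represented by the probe with the largest mean.

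All 6 arrays entered 1 fit in limma 3.58.1 (R 4.3.3), leaving 3 residual degrees of freedom and using no block. Unless another test is named, adjusted p are from limma's moderated tests with Benjamini-Hochberg adjustment. The main fit and the replicate block were adjusted over 11872 genes, and the second probes of a gene over the 16111 probes kept. Each alternative was adjusted over the rows that it kept. The script was tested on simulated data. An exact two-sided test of 2 arrays against 2 cannot go below 0.333 and was not used. The labels give each biological replicate a well of each condition, so the numbers pair the arrays; deviations of same-numbered arrays correlated at 0.602, 0.741 and 0.579. The alternatives were other normalisations, detection filters, probe summaries, thresholds, the replicate block and leaving out each array. The fits that left out an array used no block, so they do not take the pairing into account.

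The members and lists were chosen with earlier results of these data known. The genes named are the members, called genes and extremes of the lists, the 3 genes most like each called member, and EGR1, DUSP6 and ID1 as checks. Of 30854 array symbols, 21859 matched a current RefSeq symbol or synonym (GRCm38.p6). The BMP4 dose is that of the labels; the methods give a lower one for the co-cultures. Some items of the lists are not reported here. The number of arrays limits the precision.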

Additional observations from a re-analysis of the deposited data

How the results depend on the processing

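The number of members called for FGF2 against -GFs was 1 as reported and under each alternative except 2. It was 0 with the adjusted p of an unpaired t-test, which called none of all genes. The methods give limma for the arrays and name the unpaired t-test in a separate section on statistics. The count was 3 without a threshold on the fold, where all genes called rose from 419 to 1402. For FGF2 against BMP4 the count of 1 became 2 with neqc (640 of all genes, against 365), 2 with neqc and the replicate block together, a setting added after seeing the data (987 of all genes), 0 with that t-test and 3 without the fold threshold (1076 of all genes). It ranged from 1 to 2 over the fits that left out an array, with 2 without BMP4 replicate 2. PLAU was the gene added with neqc, at 1.11 (adjusted p = 0.0583). For BMP4 against -GFs the count was 0 under all alternatives. The replicate block, which follows the pairing of the wells, left 1, 0 and 1 members called in the 3 contrasts and changed no other call of a member.

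Of 378 single-gene values recomputed, 362 kept direction and call, 2 lost the call (PLAUR with the t-test, adjusted p = 0.331 and 0.318), 3 gained it (PLAU, FGF2 against BMP4) and 11 changed sign, all in genes not called. For FGF2 against -GFs, SERPINE2 was -0.16 with median scaling and -0.13 to 0.16 over the arrays left out (-0.10 without FGF2 replicate 2), and SERPINF1 was 0.015 with the mean of its probes. For BMP4 against -GFs, SERPINE2 was -0.057 with median scaling and -0.077 to 0.21 over the arrays left out, SERPINF1 was 0.11 with the mean of its probes and -0.17 to 0.056 over the arrays left out, and ANXA2 was -0.077 to 0.038 (0.0094 without BMP4 replicate 2). For FGF2 against BMP4, SERPINE2 was -0.17 to 0.057 over the arrays left out. The cause of these shifts was not tested. PLAT also missed an adjusted p of 0.1 for FGF2 against -GFs with median scaling (0.102), with neqc (0.130), with limma's trend and robust options (0.111) and with the 2 groups fitted alone (0.116).

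Signal over background limits SERPINB2 and PLG, which were undetected, and PLAUR outside FGF2, where it was close to background. ANXA2 and the brighter SERPINF1 probe lay near the top of the range. With 2 arrays per group, each from a culture of 1 cell line, the adjusted p weighs a difference against the spread between these cultures. That spread is moderated over all genes by limma and, without the block, includes differences between the replicate numbers. Adipocyte marker levels also differed between these cultures.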

Other observations

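Other serpins and annexins were described beside the members. Of 56 other serpin genes on the array, 8 were tested, and none was called or passed the adjusted p in limma for FGF2 against -GFs; an unadjusted p under 0.05 was given for 2 of them. Under the replicate block 2 passed higher and 1 lower, beside 18.1% and 19.6% of all genes. SERPINA3F, among those higher, was detected on the FGF2 arrays alone and so entered the test through that group. SERPINA3G, a member of the mouse antichymotrypsin-like cluster, had intensities of 325.8 and 563.6 in -GFs, 717.3 and 1901.7 with FGF2, and 205.4 and 402.7 with BMP4, with a log2 fold change of 1.52 (SE 0.57, adjusted p = 0.168, and 9.96e-07 with the replicate block). The lowest value was that of SERPINB6B, at -0.57 (adjusted p = 0.506, and 0.00427 with the replicate block). The median of the 8 was -0.13.

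Of 11 other annexin genes, 9 were tested and none passed in limma for FGF2 against -GFs without the block (1 had an unadjusted p under 0.05), whereas 2 passed higher and 1 lower with it, beside the same shares of all genes. Their log2 fold changes ran from -0.37 for ANXA6 (adjusted p of 0.0648 with the block) to 0.61 for ANXA7 (adjusted p = 0.128, and 0.00279 with the block), with a median of -0.01.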
